A study of Mus musculus with 18 samples.

Results

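Keratins of the basal and the luminal layer of the mammary gland were followed through 18 primary mouse mammary tumours in 4 groups. The set was named by gene symbol: Krt5, Krt14, Krt15, Krt17 and Krt6a for the basal layer, and Krt7, Krt8, Krt18 and Krt19 for the luminal layer. Of these 9 genes 8 were measured, each by 1 array feature, among 16887 genes in all. No feature carried Krt6a as its single symbol, so Krt6a has no value here.

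All tumours were from FVB mice, and all titles carry MMTV and Wnt1, so Wnt1 is shared by controls and receptor groups. The MMTV promoter drives transgenes mainly in mammary epithelium. The groups are Wnt1 alone (6 arrays), Wnt1_iFGFR1 (4), Wnt1_iFGFR2 (4) and Wnt1_iR2 (4), written below as Wnt1, iFGFR1, iFGFR2 and iR2. FGFR1 and FGFR2 are receptors for fibroblast growth factors. The labels do not expand the letter i or the name iR2, so iR2 was kept apart from iFGFR2. Neither the age of the mice nor any agent they received is stated in the sources used here. The series asks how FGF receptor and Wnt1 signalling act together in mammary tumours. Each array compared tumour RNA (Cy5) with RNA of a whole mouse (Cy3), and a value is the log2 ratio of tumour over reference. A ratio depends on the reference as well as on the tumour, so ratios were compared between arrays and never between genes. Each sample title carries a different number, which the labels do not explain. No label states whether the arrays come from different animals, so the p-values reflect variation among these samples that could in part be technical.

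Keratins are the intermediate filament proteins of epithelia, and each filament needs a type I keratin paired with a type II keratin. In the mammary gland Krt5 (type II) and Krt14 (type I) form the pair of the basal, myoepithelial layer. Krt8 (type II) and Krt18 (type I) form the pair of the luminal cells that line the duct. Krt15 and Krt17 are type I keratins of basal cells, Krt17 being known for its induction in wounded and stressed epithelium. Krt7 (type II) and Krt19 (type I) are further keratins of simple, luminal epithelium. Tumours driven by Wnt1 are known to hold both layers.

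Type I and type II genes lie in separate clusters, except that Krt18, a type I gene, lies beside Krt8 in the type II cluster. In the gene table of assembly GRCm38.p6, Krt15 and Krt19 were neighbours with 0 genes between them, although 1 is a basal and the other a luminal keratin. Between Krt8 and Krt18 lay 2 genes, 0 of them protein-coding. Promoter sequences are shown for the type II basal gene Krt5, for the luminal pair Krt8 and Krt18, and for Krt7, a luminal gene that was called in no comparison. They are those of RefSeq on GRCm38.p6, each of 300 bases from 250 before to 50 after the annotated start. The windows are chr15:101712856-101713155 (minus strand) for Krt5 and chr15:101412153-101412452 (plus strand) for Krt7. For Krt8 the window is chr15:102004293-102004592 (minus strand), and for Krt18 it is chr15:102027966-102028265 (plus strand). Capitals mark matches to 5 motifs on either strand, and matches that overlap run together. The first motif, the core promoter box, was searched as TATAAA. A close relative of that box was searched as ATAAAA. The motif of Sp factors was searched as GGGCGG. For AP-1 the letters were TGANTCA, and for AP-2 they were GCCNNNGGC.
Krt5: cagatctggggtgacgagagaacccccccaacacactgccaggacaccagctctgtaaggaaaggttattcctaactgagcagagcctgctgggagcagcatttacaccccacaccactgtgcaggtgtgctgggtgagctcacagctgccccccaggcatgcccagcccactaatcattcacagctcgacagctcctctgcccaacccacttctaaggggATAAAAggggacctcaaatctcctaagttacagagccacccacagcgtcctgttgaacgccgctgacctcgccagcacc
Krt7: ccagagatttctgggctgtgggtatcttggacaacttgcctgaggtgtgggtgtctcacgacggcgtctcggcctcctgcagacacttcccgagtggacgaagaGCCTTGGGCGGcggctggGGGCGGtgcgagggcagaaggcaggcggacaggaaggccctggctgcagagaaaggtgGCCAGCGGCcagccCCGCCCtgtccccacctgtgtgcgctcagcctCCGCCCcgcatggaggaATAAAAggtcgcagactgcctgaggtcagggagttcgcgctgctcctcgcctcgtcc
Krt8: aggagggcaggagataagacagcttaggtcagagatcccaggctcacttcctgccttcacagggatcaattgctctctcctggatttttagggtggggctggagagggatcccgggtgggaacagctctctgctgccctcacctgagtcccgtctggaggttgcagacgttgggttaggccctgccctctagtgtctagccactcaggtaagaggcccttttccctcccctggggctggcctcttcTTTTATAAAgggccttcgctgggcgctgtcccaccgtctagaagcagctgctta
Krt18: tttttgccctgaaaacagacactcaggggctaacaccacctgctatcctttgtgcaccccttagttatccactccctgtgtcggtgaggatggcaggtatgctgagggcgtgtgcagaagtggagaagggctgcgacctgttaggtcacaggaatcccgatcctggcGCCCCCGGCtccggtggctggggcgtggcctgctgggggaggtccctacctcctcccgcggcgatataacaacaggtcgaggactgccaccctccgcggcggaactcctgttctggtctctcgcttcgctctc

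The 4 windows differed in what they held. Krt5 had ATAAAA 29 bases before the start and no other match. Krt7 had ATAAAA 7 bases before the start, 4 matches to GGGCGG and 2 to GCCNNNGGC. Krt8 had TATAAA on both strands and ATAAAA on the other strand, all overlapping next to the start. Krt18 had GCCNNNGGC 83 bases before the start and none of the other 4 motifs. Among 32851 promoters of this length, 13.6% held TATAAA, 18.5% ATAAAA, 35.7% GGGCGG, 7.81% TGANTCA and 16.6% GCCNNNGGC. A match is a description of letters, and these arrays measured no binding. Of the other members, no promoter of Krt14, Krt15, Krt17, Krt19 or Krt6a is printed.

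The deposited table held no empty cell, array medians lay between -0.02 and 0.01, and the spread of all genes (interquartile range) ran from 0.832 to 1.24 over the arrays. This spread differed by group: 0.832 to 0.918 in iR2, 0.836 to 1.04 in Wnt1, 0.897 to 1.135 in iFGFR1 and 0.947 to 1.24 in iFGFR2. The epithelial gene Epcam had group mean ratios from 1.98 (Wnt1) to 3.0 (iFGFR1), which fits the label of a mammary tumour. The basal regulator Trp63 had group means from 1.53 to 2.22. The level of fibroblast markers differed between arrays: the mean of 16 fibroblast genes was -2.01 to -0.88 over the Wnt1 arrays and -2.92 to -2.25 over the iFGFR1 arrays. It was -2.56 to -2.09 in iFGFR2 and -2.28 to -2.06 in iR2. In tumour pieces, fewer cells of a type and less RNA per cell cannot be told apart, and the part of the fibroblast genes in the keratin results was not tested. One Wnt1 array, replicate 3, stood apart in the keratins and in these lists, with the highest fibroblast, endothelial and macrophage means of the 6 Wnt1 arrays (-0.88, -0.47 and -0.37). For Krt8 and Krt18 in iFGFR1 and iR2, the differences from Wnt1 are given with and without Wnt1 replicate 3. Replicate 1 of iFGFR2 also stood apart. It had the widest interquartile range (1.24) and the lowest ratios of Krt17 (-2.20) and Krt7 (0.53) of the 18 arrays.

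The balance between the layers had a lower mean, further to the luminal side, in every receptor group than in Wnt1. Mean ratios of Krt8 and Krt18 were higher, and that of Krt5 lower, in all 3 receptor groups than in Wnt1, although not all of these differences passed the test. Here the balance is the mean ratio of the 4 basal keratins minus the mean ratio of the 4 luminal keratins, and only its differences between arrays have a meaning. In the Wnt1 arrays its lowest value was -2.67, its median -1.57 and its highest -0.61. In iFGFR1 it was -2.24, -3.17, -2.68 and -2.56. In iFGFR2 it was -3.36, -2.12, -2.41 and -2.50, and in iR2 -2.46, -3.02, -2.85 and -2.12. The 3 receptor groups covered much the same range, while the Wnt1 arrays spread widely and overlapped it through replicates 3 and 5, at -2.25 and -2.67.

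The Wnt1 arrays had a mean balance of -1.63 ± 0.75 (SD, n = 6). That of iFGFR1 was -2.66 ± 0.39, that of iFGFR2 -2.60 ± 0.53 and that of iR2 -2.61 ± 0.40 (SD, n = 4 each). The differences from Wnt1 were therefore close to each other, at -1.03, -0.97 and -0.98, and they share the Wnt1 arrays. No test is given for this score. Its components are given as a description, since the basal and luminal means of the receptor groups were not tested against each other and their arrays overlap. In iFGFR1 the basal mean was 0.52 log2 units under that of Wnt1 and the luminal mean 0.51 over it, a near even division. That basal mean joins lower Krt14, Krt5 and Krt15 (-1.68, -1.22 and -0.16) with a higher Krt17 (0.98). In iFGFR2 nearly all of the difference in means was on the basal side. The basal mean was -0.70 ± 0.60 (SD, n = 4) against 0.15 ± 0.33 (SD, n = 6) in Wnt1, and luminal means were 1.90 and 1.79. This luminal mean joins opposite signs: Krt8 and Krt18 were each 0.70 higher than in Wnt1, Krt7 was 0.67 lower and Krt19 0.28 lower. All 4 iFGFR2 arrays had a basal mean below every Wnt1 array. Replicate 1 of iFGFR2 lay far from the others, at -1.60 against -0.41, -0.41 and -0.38, so the group mean and SD lean on it. In iR2 most of the difference in means was on the luminal side, at 2.47 ± 0.17 (SD, n = 4) against 1.79 ± 0.57 (SD, n = 6). Basal means were -0.14 and 0.15.

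**Figure D1:**
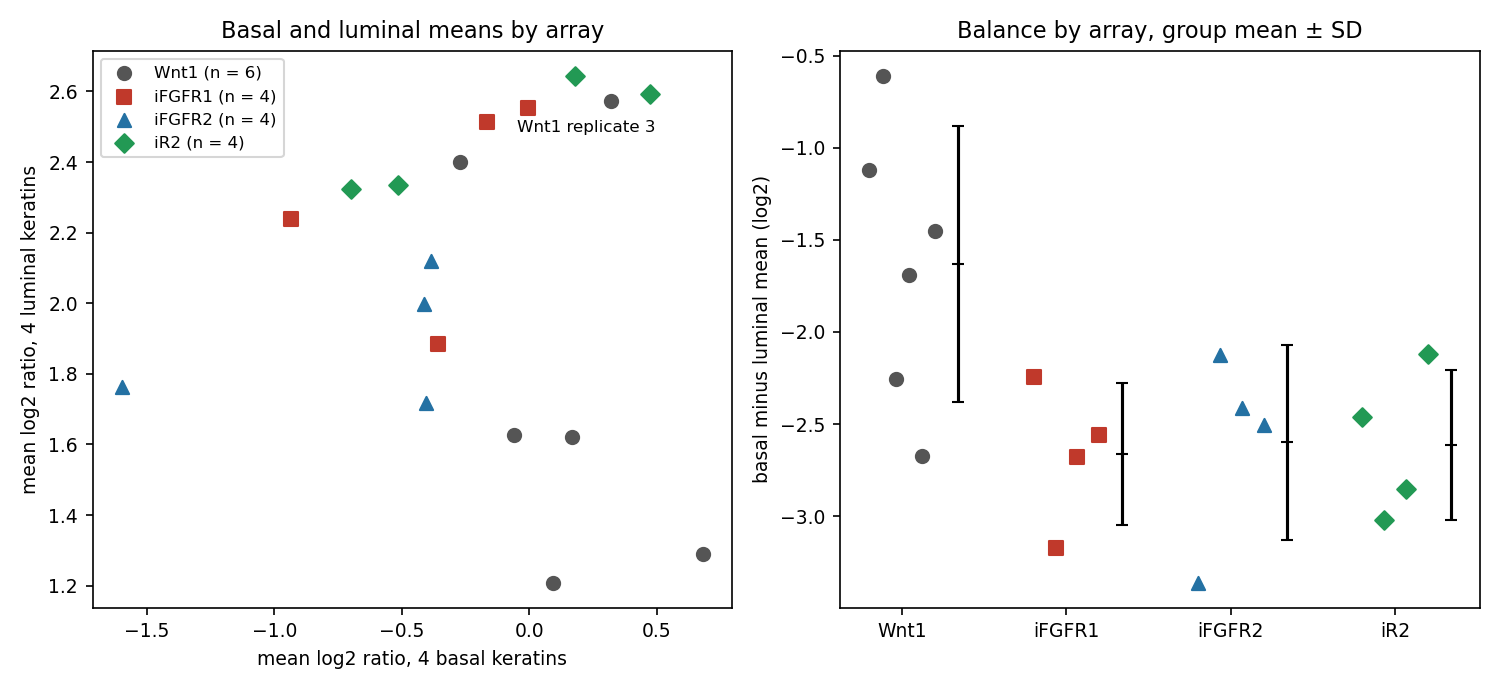
Left: mean log2 ratio of the 4 luminal keratins (vertical) against that of the 4 basal keratins (horizontal), 1 point an array. Right: the basal minus luminal balance of each array, with bars for the group mean ± SD; the Wnt1 mean of -1.63 lies above the 3 receptor means of -2.66, -2.60 and -2.61.

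When the balance was narrowed to the 2 canonical pairs (Krt5 and Krt14 minus Krt8 and Krt18), the difference of iFGFR1 from Wnt1 was larger. It was -0.81 ± 1.06 (SD, n = 6) in Wnt1 and -3.43 ± 0.54 (SD, n = 4) in iFGFR1, where all 4 arrays lay below every Wnt1 array. In iFGFR2 it was -2.30 ± 0.99 (SD, n = 4) and in iR2 -2.02 ± 0.74 (SD, n = 4), with 1 and 2 of 4 arrays below every Wnt1 array. The difference of iFGFR1 from Wnt1 was -2.62 in the pairs against -1.03 in the full set, where the full set adds Krt15, Krt7 and Krt19, none of them called in any comparison, and Krt17, whose ratio was higher in iFGFR1 than in any other group.

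Of the 8 keratins, 4 changed in iFGFR1 against Wnt1, 2 basal genes down and 2 luminal genes up, in a comparison in which 15.4% of all genes were called (7.06% lower and 8.38% higher). An adjusted p below 0.05 counts as a call, from limma's test over all genes. In the iFGFR2 comparison 0 of 8 were called by limma, against 3.43% of all genes, although 4 of the 8 had an unadjusted p below 0.05, which 20.9% of all genes had. In the iR2 comparison 1 of 8 was called, with a background of 7.1%. The groups did not overlap for 3 of 8 keratins in iFGFR1 (background 9.49%), 0 in iFGFR2 (4.47%) and 1 in iR2 (13.6%). The median difference of the 4 basal keratins was -0.69 in iFGFR1, -0.79 in iFGFR2 and -0.31 in iR2, and that of the 4 luminal keratins 0.45, 0.21 and 0.67. Over all genes these medians lay between -0.05 and 0.02. The F test over the 4 groups called Krt14 (adjusted p = 0.00463), Krt17 (0.00717), Krt5 (0.0188) and Krt18 (0.0304), 4 of 8 with a background of 19.6%.

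**Figure D2:**
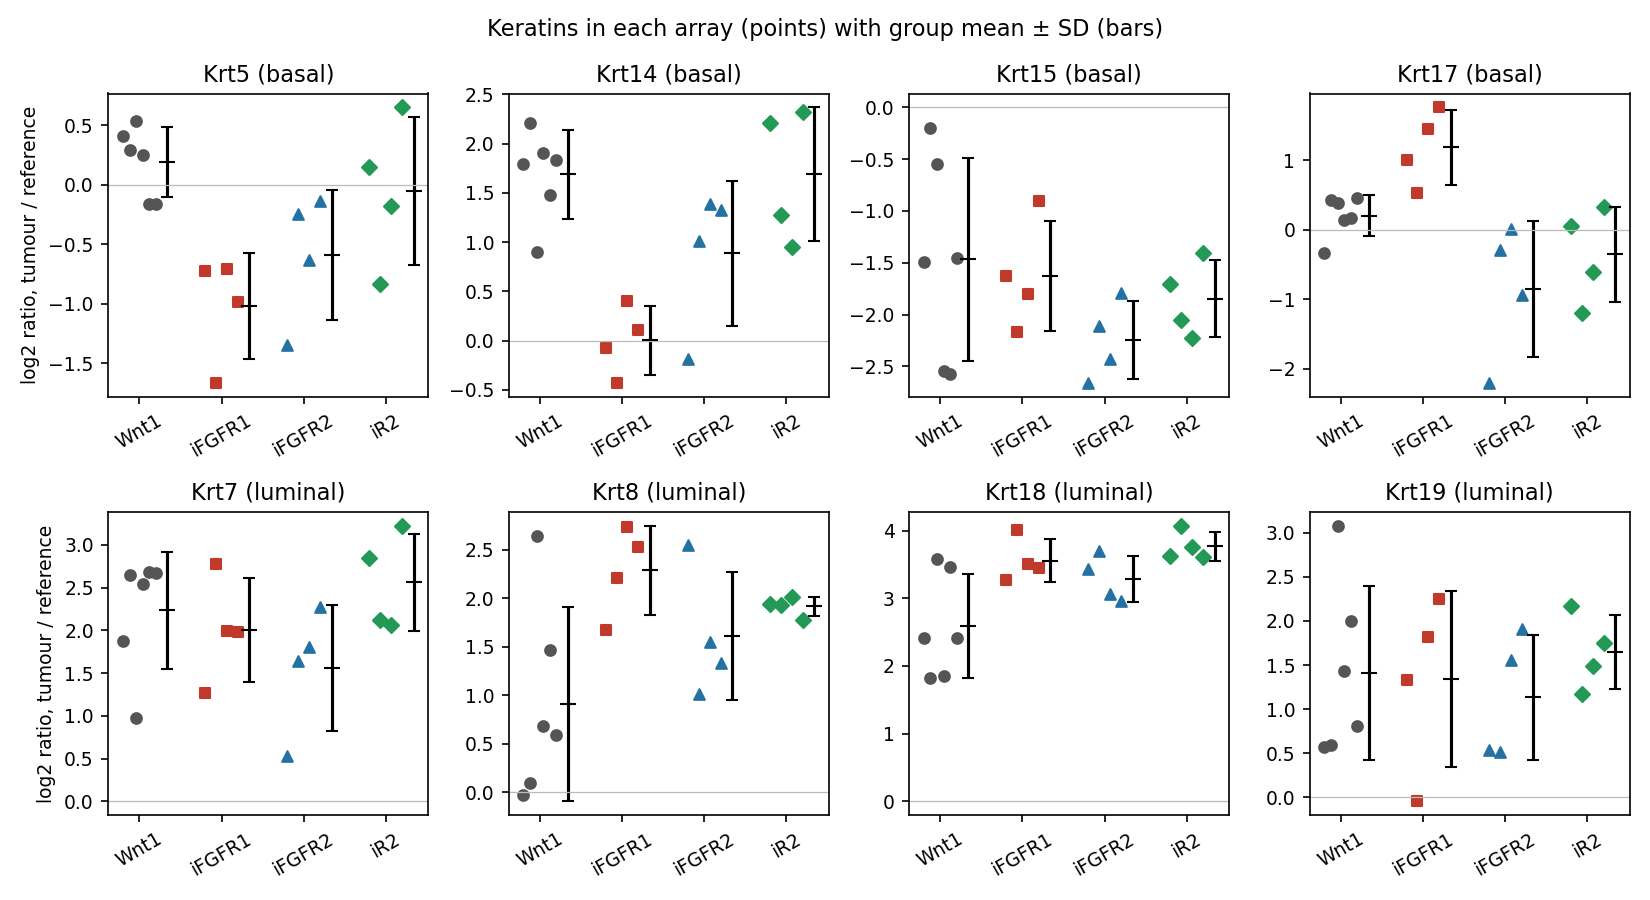
Log2 ratio of tumour over reference for each measured keratin, 1 point an array, with bars for the group mean ± SD (n = 6 for Wnt1, 4 for the others); each panel has its own vertical scale. The iFGFR1 arrays of Krt14 lie between -0.43 and 0.40, all below the Wnt1 arrays, whose lowest value is 0.90.

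Krt14, the type I keratin of the basal pair, changed most among the members in iFGFR1. Its Wnt1 arrays had a lowest ratio of 0.90, a median of 1.81 and a highest of 2.21. The iFGFR1 arrays read -0.07, -0.43, 0.40 and 0.11, the iFGFR2 arrays -0.19, 1.01, 1.39 and 1.33, and the iR2 arrays 2.21, 1.28, 0.95 and 2.32. Every iFGFR1 array was below every Wnt1 and every iR2 array, iR2 overlapped Wnt1, and iFGFR2 was split, with 1 array at the iFGFR1 level and 3 near the lower Wnt1 arrays. Krt14 fell by 1.68 (SE 0.33, adjusted p = 0.00199) in iFGFR1 against Wnt1, a 3.21-fold lower ratio. The difference was -0.80 (adjusted p = 0.163) in iFGFR2. In iR2 it was 0.0021, with a 95% interval of -0.68 to 0.68. Krt14 was also higher in iR2 than in iFGFR1, by 1.69 (SE 0.36, adjusted p = 0.00482), which was the test of that difference itself. That call was lost with the number in the sample titles as a covariate (adjusted p = 0.253), a number that is highest in all iR2 arrays.

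Krt5, the type II partner of Krt14, also had its lowest ratios in iFGFR1. In Wnt1 the lowest ratio was -0.16, the median 0.27 and the highest 0.54. It was -0.72, -1.67, -0.71 and -0.99 in iFGFR1, -1.34, -0.24, -0.63 and -0.14 in iFGFR2, and 0.15, -0.83, -0.18 and 0.65 in iR2. All iFGFR1 arrays lay below the Wnt1 arrays, and iR2 spanned from the iFGFR1 range to above the Wnt1 range. Krt5 fell by 1.22 (SE 0.28, adjusted p = 0.00697) in iFGFR1, a 2.32-fold lower ratio. The differences were -0.78 (adjusted p = 0.118) in iFGFR2 and -0.25 (adjusted p = 0.663) in iR2. Both genes of the basal pair kept their call in iFGFR1 under all 12 alternative settings at the 0.05 threshold and after leaving out each of the 18 arrays. Each of the pair has 1 feature, so the settings that choose among features could not alter its ratios. Krt5 was 0.97 higher in iR2 than in iFGFR1 (adjusted p = 0.0478), a call that was lost in 6 of 12 settings and in 13 of 18 fits with 1 array left out (highest adjusted p = 0.172, without iR2 replicate 4).

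Krt17, the basal keratin linked to injury and stress, went apart from the basal pair. Its lowest Wnt1 ratio was -0.34, the median 0.27 and the highest 0.45. The iFGFR1 arrays read 1.0, 0.53, 1.45 and 1.76, the iFGFR2 arrays -2.20, -0.28, 0.01 and -0.93, and the iR2 arrays 0.06, -1.19, -0.61 and 0.33. All 4 iFGFR1 arrays were above every other array of the study, and no iFGFR2 or iR2 array was above the highest Wnt1 array. Against Wnt1 the difference of 0.98 in iFGFR1 missed the threshold (SE 0.36, adjusted p = 0.0736), with a 95% interval of 0.22 to 1.74. It passed in the fit without iFGFR1 replicate 2 (1.20, adjusted p = 0.0399), in the fit without iFGFR2 replicate 1 (adjusted p = 0.0263) and with only the compared arrays fitted (adjusted p = 0.0248). In iFGFR2 the difference was -1.06 (adjusted p = 0.102) and in iR2 -0.56 (adjusted p = 0.385).

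Krt17 was also called in both comparisons of a receptor group with iFGFR1. It was lower in iFGFR2 than in iFGFR1 by 4.10-fold (-2.03, SE 0.40, adjusted p = 0.0085), the single call among 8 keratins in a comparison with a background of 2.13%. This call was kept after leaving out each of the 18 arrays, but not with array weights or with only the compared arrays (adjusted p up to 0.0875). Krt17 was also lower in iR2 than in iFGFR1 (-1.54, SE 0.40, adjusted p = 0.0161), where Krt14, Krt17 and Krt5 made 3 calls of 8 with a background of 11.7%. Without iR2 replicate 2 that Krt17 difference was -1.26 (adjusted p = 0.0706), and with the title number as a covariate it also missed the threshold. Krt5 and Krt14 had the opposite sign to Krt17 in both comparisons, and the balance without Krt17 was 0.63 higher in iFGFR2 and 0.64 higher in iR2 than in iFGFR1.

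Krt15, a type I keratin of basal cells, varied mostly within Wnt1. There the lowest ratio was -2.57, the median -1.47 and the highest -0.20. The receptor groups were narrower, from -2.17 to -0.91 in iFGFR1, -2.66 to -1.79 in iFGFR2 and -2.22 to -1.40 in iR2. The Wnt1 arrays covered nearly this whole span, and no comparison called Krt15. Its difference from Wnt1 was -0.16 in iFGFR1 (95% interval -0.97 to 0.65), -0.78 in iFGFR2 (-1.59 to 0.03) and -0.38 in iR2 (-1.19 to 0.43), so changes of about 1 log2 unit are within the error.

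Krt8, the type II keratin of the luminal pair, had its widest spread in Wnt1, from -0.03 through a median of 0.63 to 2.65. It was 1.68, 2.21, 2.74 and 2.53 in iFGFR1, 2.55, 1.01, 1.55 and 1.33 in iFGFR2, and 1.94, 1.93, 2.02 and 1.78 in iR2. All 12 receptor arrays were above the Wnt1 median, and 5 of the 6 Wnt1 arrays lay below every iFGFR1 and every iR2 array. The sixth, Wnt1 replicate 3, was above all receptor arrays but 1. Krt8 rose by 1.38 (SE 0.40, adjusted p = 0.0252) in iFGFR1, a 2.61-fold higher ratio. In iFGFR2 the difference was 0.70 (adjusted p = 0.33) and in iR2 1.01 (adjusted p = 0.132).

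Whether Krt8 was called turned on single Wnt1 arrays. Without Wnt1 replicate 3 it was called in all 3 comparisons, at 1.73 (adjusted p = 0.000794) in iFGFR1, 1.05 (adjusted p = 0.0425) in iFGFR2 and 1.36 (adjusted p = 0.00882) in iR2. The iFGFR1 call was lost without Wnt1 replicate 1, 2 or 6 or iFGFR1 replicate 3 or 4, with adjusted p up to 0.0815. It was also lost in 3 of the 12 settings.

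Krt18, the type I partner of Krt8, was the only member called in iR2. Its Wnt1 arrays had a lowest ratio of 1.83, a median of 2.41 and a highest of 3.59. The receptor arrays read 3.26, 4.01, 3.5 and 3.45 in iFGFR1, 3.43, 3.70, 3.07 and 2.96 in iFGFR2, and 3.62, 4.07, 3.76 and 3.61 in iR2. Every iR2 array was above every Wnt1 array, while Wnt1 replicates 3 and 5, at 3.59 and 3.46, lay within the other receptor groups. Krt18 rose by 1.17 (SE 0.31, adjusted p = 0.0251) in iR2, a 2.26-fold higher ratio, and by 0.97 (SE 0.31, adjusted p = 0.0378) in iFGFR1. The difference in iFGFR2 was 0.70 (adjusted p = 0.195).

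Both Krt18 calls were near the threshold. That of iR2 was lost in 3 of 12 settings and without Wnt1 replicate 2, 4 or 6 or iR2 replicate 1, 2 or 3 (adjusted p up to 0.0968). That of iFGFR1 was lost in 6 of 12 settings and without Wnt1 replicate 1, 2, 4 or 6 or any 1 of the 4 iFGFR1 arrays (adjusted p up to 0.0978). Without Wnt1 replicate 3 the differences were larger, at 1.37 (adjusted p = 0.0042) in iR2 and 1.16 (adjusted p = 0.0067) in iFGFR1. With all arrays scaled to the same median absolute deviation, the Krt18 difference in iFGFR1 was 0.51 (adjusted p = 0.466), the lowest of its settings.

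Krt7 and Krt19, the other luminal keratins, were called in no comparison, unlike the Krt8 and Krt18 pair. For Krt7 the Wnt1 arrays had a lowest ratio of 0.98, a median of 2.60 and a highest of 2.68, and the 12 receptor arrays lay between 0.53 and 3.22. For Krt19 the Wnt1 values ran from 0.58 through a median of 1.12 to 3.08, and the receptor arrays from -0.04 to 2.25. For both genes the groups overlap widely. The Krt7 difference from Wnt1 was -0.23 in iFGFR1 (95% interval -1.02 to 0.56), -0.67 in iFGFR2 (-1.46 to 0.12) and 0.33 in iR2 (-0.46 to 1.12), where it turned to -1.41 with the title number as a covariate. For Krt19 it was -0.07 (-1.06 to 0.91), -0.28 (-1.26 to 0.70) and 0.23 (-0.75 to 1.22). Between iR2 and iFGFR2, 0 of 8 keratins were called by limma (background 1.34%), and 2 had an unadjusted p below 0.05, as did 15.4% of all genes: Krt7 (1.0 higher in iR2, adjusted p = 0.244) and Krt14 (0.80 higher, adjusted p = 0.281).

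**Figure D3:**
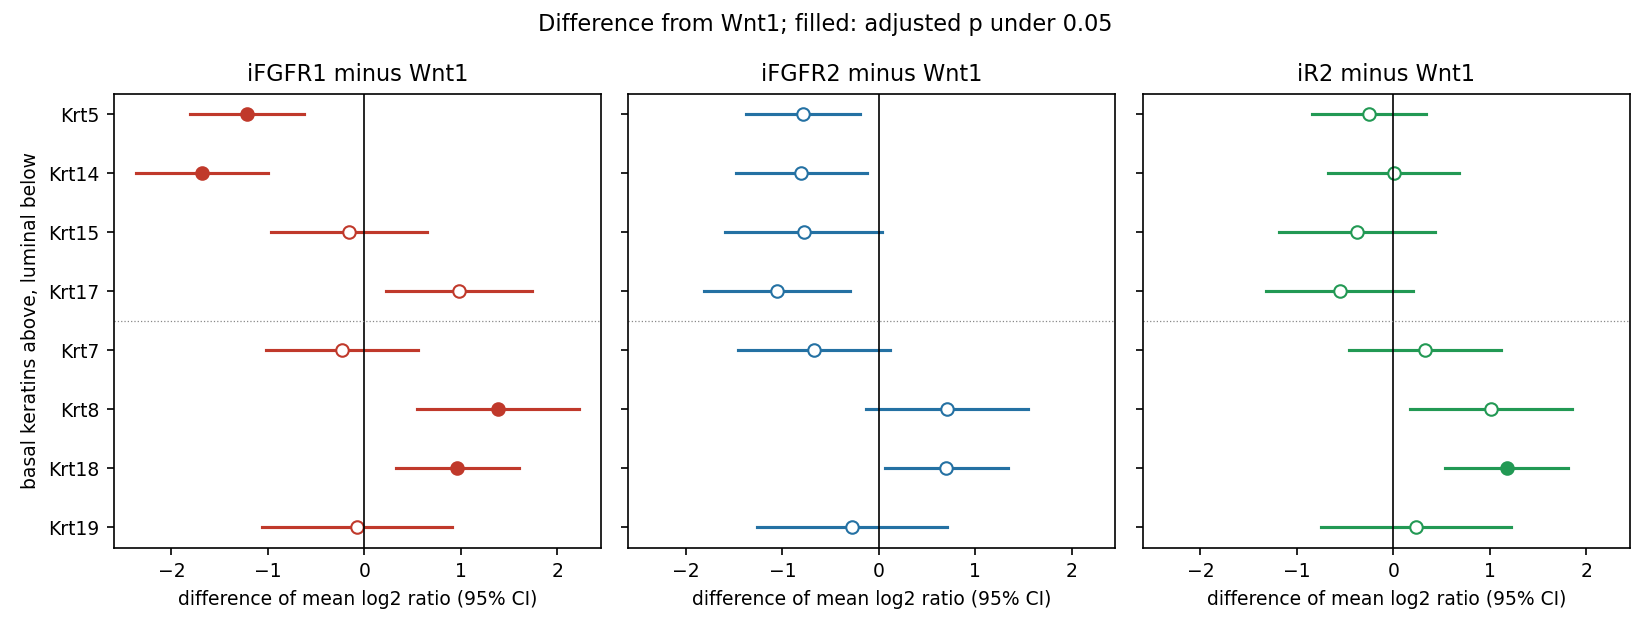
Difference of the mean log2 ratio from Wnt1 (horizontal, bars for the 95% interval) for each keratin in each receptor group; filled points have an adjusted p below 0.05 in limma's test. Filled points are Krt14, Krt5, Krt8 and Krt18 in iFGFR1 (-1.68, -1.22, 1.38 and 0.97), Krt18 in iR2 (1.17), and none in iFGFR2.

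With the 3 receptor groups averaged against Wnt1, the calls were those of the 2 pairs, 4 of 8 with a background of 12.5%. Krt18 rose by 0.95 (SE 0.24, adjusted p = 0.0138), with 6 of 12 receptor arrays above every Wnt1 array. Krt8 rose by 1.03 (SE 0.31, adjusted p = 0.0342), with 1 of 12 arrays above every Wnt1 array. Krt5 fell by 0.75 (SE 0.22, adjusted p = 0.0297), with 9 of 12 arrays below every Wnt1 array and 1 above. Krt14 fell by 0.83 (SE 0.25, adjusted p = 0.0363), with 5 of 12 below and 2 above. The mean hides the spread between the receptor groups: for Krt14 it joins a fall in iFGFR1 and a difference of 0.0021 in iR2, and for Krt17 (-0.21, adjusted p = 0.681) it joins values of opposite sign. None of the 4 was kept with arrays scaled to equal median absolute deviation or with the title number as a covariate (adjusted p up to 0.421, for Krt5). Of these calls only that of Krt18 was kept after leaving out each of the 18 arrays. Krt8 was lost in 9 such fits, Krt14 in 8 and Krt5 in 4 (Wnt1 replicate 1, 2, 3 or 4). The highest adjusted p was 0.109 for Krt8 and 0.108 for Krt14, both without Wnt1 replicate 2, and 0.0698 for Krt5.

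Variation within groups was described by each array's deviation from its group mean. Of 28 pairs of keratins, 16 had a positive Pearson correlation over the 18 arrays, and 0 had an adjusted p below 0.05 (100000 permutations within groups, two-sided). The 3 smallest Pearson p were for pairs with Krt14. With Krt18 it gave r = -0.60 (permutation p = 0.00237, adjusted p = 0.0664) and rho = -0.66 (permutation p = 0.00185, adjusted p = 0.0518), and r = -0.54 without the 2 arrays farthest from the median of Krt14. With the basal Krt17 it gave r = 0.71 (permutation p = 0.0121, adjusted p = 0.0788) and rho = 0.70 (permutation p = 0.00925, adjusted p = 0.0863), and r = 0.70 without 2 arrays. Between the basal genes Krt5 and Krt15, r was 0.49 (permutation p = 0.014, adjusted p = 0.0788) and rho 0.64 (permutation p = 0.00608, adjusted p = 0.0851), with r = 0.50 without 2 arrays. Across the groups, Krt14 was lowest and Krt17 highest in iFGFR1.

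The partners of each pair had positive correlations that missed the adjusted threshold. Krt8 and Krt18 gave r = 0.65 (permutation p = 0.0406, adjusted p = 0.103) and rho = 0.66 (permutation p = 0.018, adjusted p = 0.126), with r = 0.48 without 2 arrays. Krt5 and Krt14 gave r = 0.60 (permutation p = 0.0337, adjusted p = 0.103) and rho = 0.50 (permutation p = 0.0778, adjusted p = 0.226), with r = 0.42 without 2 arrays. Krt7, a luminal gene by the list, had a positive value with Krt14 (r = 0.70, permutation p = 0.00632, adjusted p = 0.0788; rho = 0.57, permutation p = 0.026, adjusted p = 0.14) and had r = -0.48 with Krt8. Without 2 arrays these were 0.45 and 0.14, so the second relation rests on the 2 arrays left out.

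**Figure D4:**
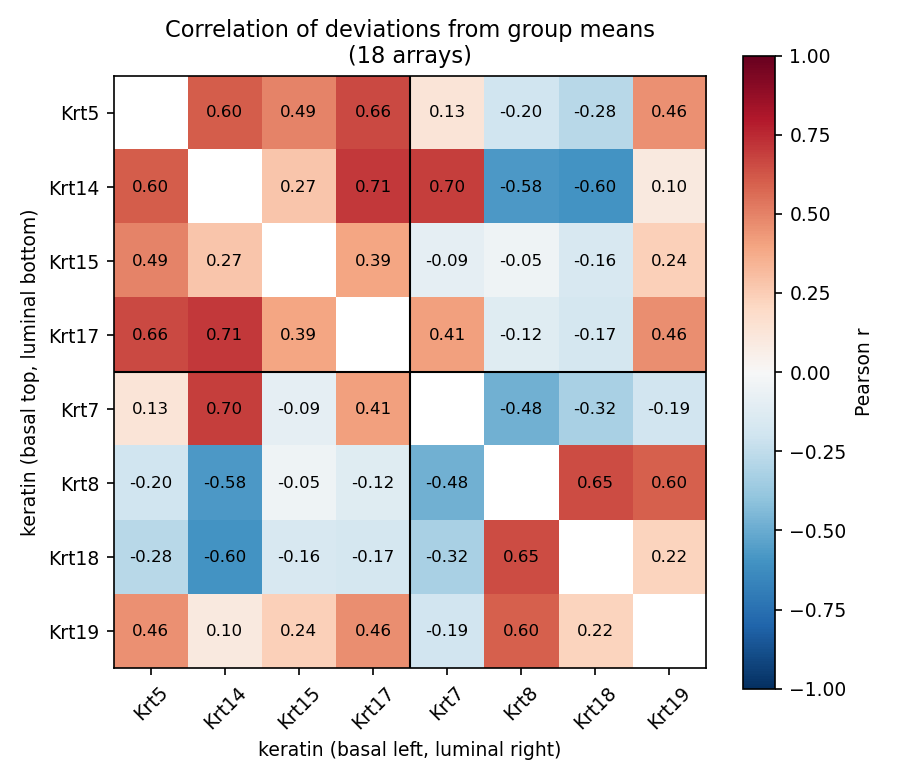
Pearson correlation between keratins over 18 arrays, each array taken as its deviation from its group mean, with basal genes first and luminal genes after the black line. Krt14 has negative values with Krt18 (-0.60) and Krt8 (-0.58, but -0.21 without Wnt1 replicate 3 and iFGFR2 replicate 1) and a positive one with Krt7 (0.70); 0 of 28 pairs have an adjusted p below 0.05.

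The genes whose ratios were most like a keratin's over all 18 arrays are given by Pearson r, as a description, since they share arrays, reference and groups. For Krt14 they were Aox3 (0.936), Anxa8 (0.935) and Lgr5 (0.929), Lgr5 being a Wnt target and stem cell receptor. For Krt5 they were Gsn (0.872), which encodes the actin-severing protein gelsolin, Il17rb (0.868) and Col16a1 (0.857). For Krt17 they were Dcaf15 (0.888), Sec13 (0.872) and Sdr16c6 (0.869), and for Krt15 Abca8a (0.793), Cbfa2t3 (0.733) and Atp2a3 (0.718). Basal keratins therefore had no leading gene in common.

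On the luminal side, Krt8 was most like Ubtd1 (0.899), Plcg2 (0.897) and Pdha1 (0.883). Krt18 was most like Grb7 (0.881), an adaptor of receptor tyrosine kinases, Rhou (0.850) and Mccc2 (0.819). Krt7 was most like Myh14 (0.919), another keratin, Krt80 (0.896), and Tmem43 (0.865), and Krt19 like Stx7 (0.767), Npepps (0.742) and Septin9 (0.742). For the balance the highest were Mrpl36 (0.904), Ercc5 (0.894) and Lsg1 (0.866) and the lowest Rhou (-0.885), Dennd3 (-0.871) and Trap1 (-0.864). Rhou stood both among the genes most like Krt18 and at the low end for the balance. The balance subtracts a mean that includes Krt18, so these places of Rhou are not independent.

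Against Wnt1, other measured keratins were called at about the share of all genes, 5 of 31 in iFGFR1 (15.4% of all genes), 0 in iFGFR2 (3.43%) and 2 in iR2 (7.1%). In iR2 against iFGFR1, 7 of 31 were called (11.7%). Of 16 measured suprabasal and squamous keratins, 3 rose and 0 fell in iFGFR1, 0 changed in iFGFR2, and 1 rose in iR2, and of 15 hair and root sheath keratins 1 rose and 1 fell in iFGFR1 and 1 fell in iR2. Krt76, a keratin of oral and other stratified epithelium, read 2.12, 0.69, 2.38 and 0.92 in iFGFR1 and at most -0.11 in every other array. It rose by 2.20 (SE 0.28, adjusted p = 4.6e-05) against Wnt1. Krt13, a keratin of non-cornified stratified epithelium, rose by 1.16 in iFGFR1 (adjusted p = 0.0079) and by 1.16 in iR2 (adjusted p = 0.0167), and Krt2 rose by 0.72 (adjusted p = 0.0296) in iFGFR1.

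Among hair and root sheath keratins, Krt27 rose by 2.51 (SE 0.54, adjusted p = 0.00434) in iFGFR1. Even so, Wnt1 replicate 5, at -0.05, lay within the iFGFR1 arrays and the other 5 Wnt1 arrays at -4.03 to -3.26. Krt71 fell by 0.73 (adjusted p = 0.0214) in iFGFR1 and by 0.85 (adjusted p = 0.0194) in iR2. Krt6b, a near copy of Krt6a that is a separate gene, was called in no comparison, with -0.98 (adjusted p = 0.112) in iFGFR1. Features of near-identical keratins can share signal, so a Krt6b ratio may hold some Krt6a.

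**Figure D5:**
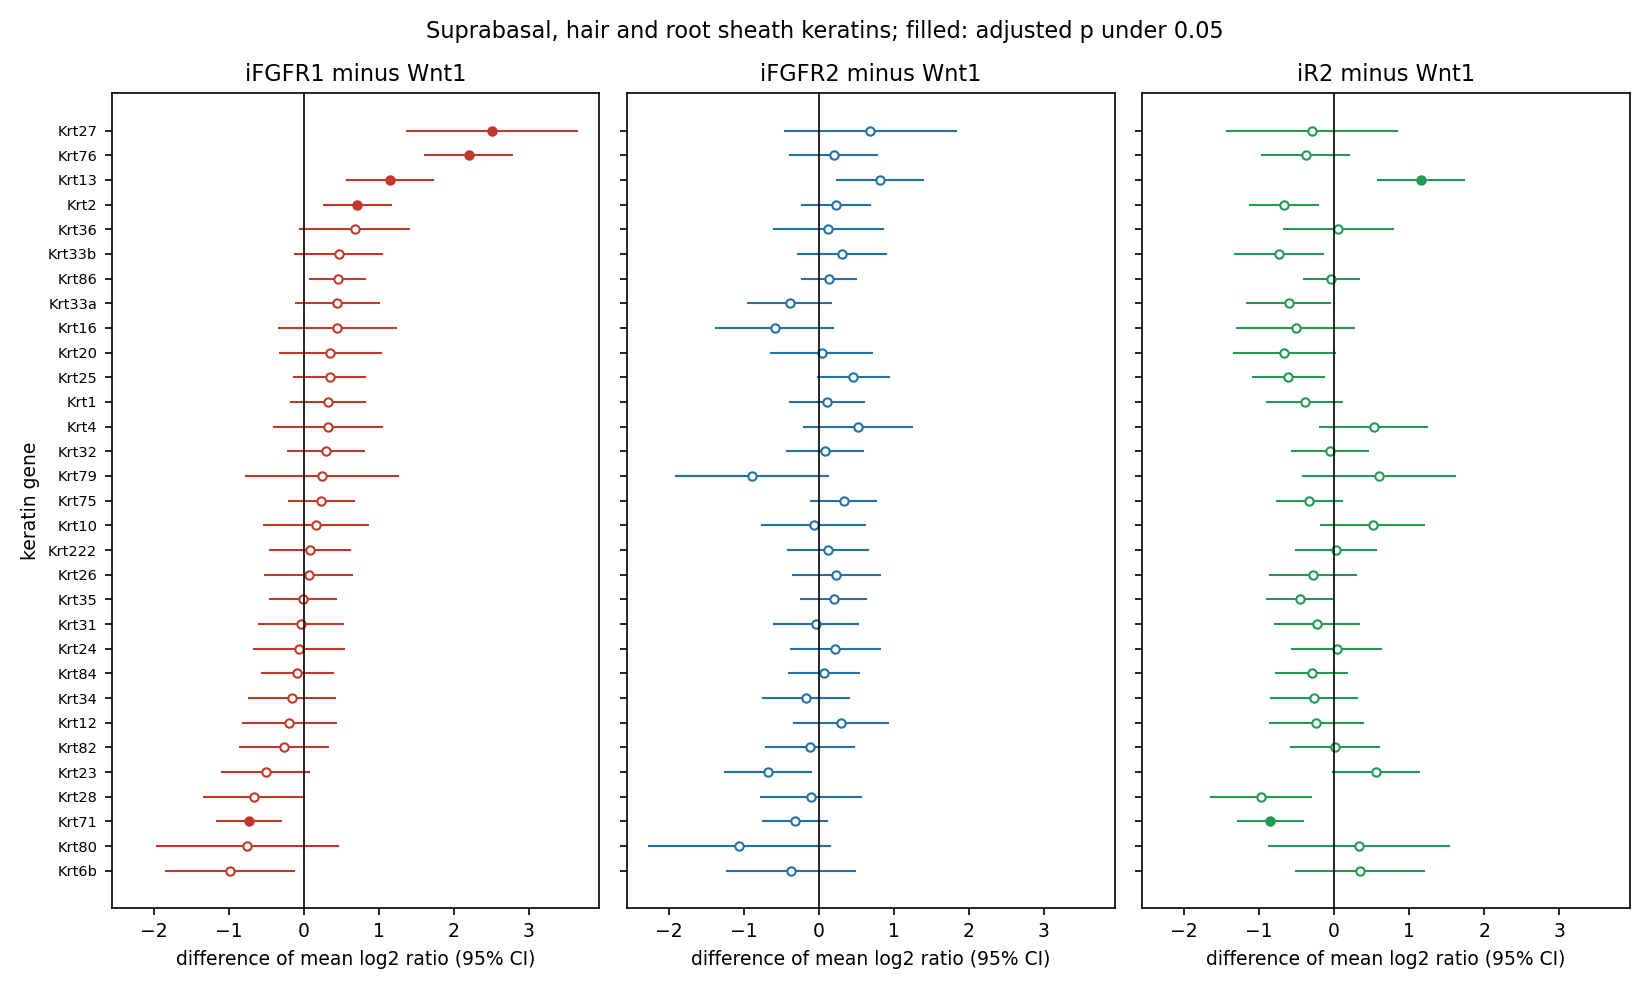
Difference of the mean log2 ratio from Wnt1 (horizontal, bars for the 95% interval) for the 31 other measured keratins in each receptor group; filled points have an adjusted p below 0.05. Filled in iFGFR1 are Krt27, Krt76, Krt13 and Krt2 (higher) and Krt71 (lower), in iR2 Krt13 and Krt71, and none in iFGFR2.

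The lists of layer genes other than keratins gave the setting of these changes. Of 20 basal and myoepithelial genes, 8 fell and 1 rose in iFGFR1 (15.4% of all genes called). In iFGFR2 0 were called (3.43% of all genes), and in iR2 2 rose (7.1%), both near those shares. The 3 with the smallest p in iFGFR1 were Id4, an inhibitor of DNA binding (-3.01, adjusted p = 4.77e-05), Tagln, an actin-binding gene of smooth muscle and myoepithelium (-1.17, adjusted p = 0.000104), and Lgr5 (-2.90, adjusted p = 0.000215). The list did not move as one, since Acta2, the smooth muscle actin of myoepithelial cells, rose by 0.92 (adjusted p = 0.026) in iFGFR1 and by 1.28 (adjusted p = 0.00962) in iR2. Trp63 was called in no comparison. The median difference of the list was -0.40 in iFGFR1, -0.11 in iFGFR2 and -0.18 in iR2, against 0.02, 0.01 and -0.05 over all genes.

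Of 22 luminal epithelial genes, 6 rose and 3 fell in iFGFR1, and 4 rose and 0 fell in both iFGFR2 and iR2. The shares of all genes called were 15.4%, 3.43% and 7.1% in these 3 comparisons. Prom1, which encodes a membrane protein of luminal cells, rose by 2.85 (adjusted p = 7.91e-07) in iFGFR1, 1.88 (adjusted p = 0.00104) in iFGFR2 and 1.74 (adjusted p = 0.000994) in iR2. Spdef, an epithelial ETS factor, rose by 2.14 (adjusted p = 0.000435), 2.83 (adjusted p = 0.000419) and 2.35 (adjusted p = 0.00132). In iFGFR2 the differences of Krt8 and Krt18 had the same sign as those of Prom1 and Spdef (0.70 each), without a call. Those of Krt7 and Krt19 had the opposite sign (-0.67 and -0.28), also without a call. The genes that fell in iFGFR1 were Muc1, Aldh1a3 and Grhl2, and the medians of the list were 0.41, 0.25 and 0.49. Of 13 epithelial genes of either layer, 4 rose and 0 fell in iFGFR1, 0 were called in iFGFR2, and 2 rose in iR2. Their medians were 0.37, 0.09 and 0.21. Among them Epcam rose by 1.02 (adjusted p = 0.0266) in iFGFR1, and Cdh1 was called in no comparison. The part of these genes in the Krt8 and Krt18 differences was not tested.

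Genes that anchor keratin filaments were called in iFGFR1 at about the share of all genes (15.4%). Of 11 hemidesmosome and basement membrane adhesion genes, 2 fell and 0 rose in iFGFR1: Col17a1, the hemidesmosomal collagen of basal cells (-1.05, adjusted p = 0.0139), and Lama5, a laminin chain (-0.77, adjusted p = 0.00839). None of the 11 was called by limma in iFGFR2 or iR2. Of 18 desmosome and linker genes, Dsc1 (1.28, adjusted p = 0.021) and Pkp3 (0.67, adjusted p = 0.0398) rose and Evpl fell by 1.88 (adjusted p = 0.0223) in iFGFR1, and Perp fell by 1.33 (adjusted p = 0.0471) in iFGFR2. Wnt1 replicate 3 lay within the iFGFR1 arrays for Evpl (-0.28) and within the iFGFR2 arrays for Perp (0.26). Of 18 squamous differentiation genes, 5 rose in iFGFR1, among them the kallikrein Klk7 (5.19, adjusted p = 0.000255). For Klk7, Wnt1 replicate 3, at -0.08, lay within the iFGFR1 arrays (-0.10 to 2.215), and the other Wnt1 arrays at -4.99 to -4.67. In iR2, 1 of the 18 squamous genes rose and 2 fell. For these and for the anchoring genes, the share of all genes called was 15.4% in iFGFR1, 3.43% in iFGFR2 and 7.1% in iR2.

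Of 16 fibroblast genes, 9 fell and 1 rose in iFGFR1 (15.4% of all genes called). In both iFGFR2 (3.43%) and iR2 (7.1%), 2 fell and 0 rose. Medians of the list were -1.03, -0.64 and -0.29. The list mean was below every Wnt1 array in all 12 receptor arrays, and its part in the keratin differences, the fall of Krt5 and Krt14 in iFGFR1 among them, was not tested. Sparc and Tagln, counted above among basal genes, are also made by stromal cells. Endothelial genes gave 1 call of 12 in iFGFR1 and 0 in iFGFR2 and iR2. Of 11 macrophage and neutrophil genes, 2 rose and 1 fell in iFGFR1 and 0 were called in iFGFR2 or iR2. Of 10 lymphocyte genes, Cd3d and Cd79b rose in iFGFR1, 0 were called in iFGFR2, and Cd3d, Cd3e and Nkg7 fell in iR2. Of 11 adipocyte and muscle genes, 0 were called by limma in these 3 comparisons. The shares of all genes given with the fibroblast list apply to each of these lists too.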

How the data were processed

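RNA of 18 tumours was measured on 2-colour arrays against whole-mouse RNA. Per the labels, tumour RNA (column kit, Cy5) and reference RNA (TRIZOL, Cy3) shared each array. The authors deposited 1 table of log2 ratios for 22575 features. Its log base and direction are not stated there: base 2 was assumed, and the direction was taken from the dyes. No source used here gives the scanner, the background correction or the normalization.

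Features were named through the platform annotation: 18658 had 1 symbol, 30 had several and 3887 none. Features of a symbol were averaged, giving 16887 genes, all tested. Of the annotated features, 18445 had an Entrez identifier in RefSeq's GRCm38.p6 table. All 18 arrays entered 1 fit in limma 3.58.1 (R 4.3.3, lmFit and eBayes), p-values adjusted per comparison by Benjamini-Hochberg, with calls at 0.05. The fit was tested on simulated data. Differences are means of log2 ratios with standard errors; folds assume base 2. The number of arrays limits the precision. Replicates carry accession-order numbers, which pair nothing.

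The members and the gene lists were chosen with earlier results of these data known. Named are all members, up to 3 genes past the threshold by smallest p in each list and comparison, the 3 genes most like each member, the 3 at either end for the balance, and Epcam, Cdh1, Trp63 and Acta2. Other genes named for a count of 5 or fewer, or for another keratin, were chosen after their values were seen. Alternatives were array centring, quantile normalization, scaling, array weights, other priors, other feature choices, a variance filter, fewer arrays, the title number as covariate, other thresholds and each array left out; fitting features one by one was added after seeing the data.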

Additional observations from a re-analysis of the deposited data

How the results depend on the processing

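Krt5 and Krt14 in iFGFR1 against Wnt1 kept their call under all 12 alternative settings and in all 18 fits with 1 array left out. Settings that choose among features could not alter the ratios of these genes, which have 1 feature each. The number of keratins called in iFGFR1 against Wnt1, 4 of 8, was 2 with arrays scaled to equal median absolute deviation, with the title number as a covariate, or at an adjusted p below 0.01. In iR2 against Wnt1 the 1 call became 0 with quantile normalization, a trended prior, the title number or the 0.01 threshold, and 2 with equal deviation or array weights. Over the mean of the receptor groups the 4 calls became 0 with equal deviation, the title number or 0.01, and 2 with array weights. In iFGFR2 against iFGFR1 the 1 call became 0 with array weights or with only the compared arrays. In iR2 against iFGFR1 the 3 calls became 0 with the title number and 1 at 0.01. In iR2 against iFGFR2 the 0 calls became 3 with equal deviation, and the 4 calls of the F test became 2 at 0.01. Leaving out 1 array gave 2 to 5 calls in iFGFR1, 0 to 1 in iFGFR2, 0 to 2 in iR2 and 1 to 4 over the receptor groups. The title number is highest in all 4 iR2 arrays, so number and group cannot be told apart there. The causes of the other changes were not tested.

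The next values are differences in balance between groups. Narrowed to Krt5 and Krt14 against Krt8 and Krt18, the balance differed from Wnt1 by -2.62 in iFGFR1 and -1.78 over the receptor groups. Against iFGFR1 the narrowed balance differed by 1.13 in iFGFR2 and 1.41 in iR2. For the full balance without Krt17, these differences from iFGFR1 were 0.63 and 0.64. With equal deviation the full balance of iR2 differed by -0.70 from iFGFR1 and by -0.79 from iFGFR2. Leaving out 1 array gave differences of the full balance from Wnt1 of -1.24 to -0.83 in iFGFR1, -1.18 to -0.71 in iFGFR2 and -1.19 to -0.78 in iR2. Of the values of single keratins under alternatives, 1794 kept their side of the threshold, 95 lost a call and 15 gained one. No called difference turned sign, but uncalled ones did: in iR2 against Wnt1, with the title number, Krt7 was -1.41, Krt5 0.13, Krt19 -0.37 and Krt14 -0.72, and with array weights Krt15 was 0.09 in iFGFR1. In all, 14 uncalled keratin differences turned sign under at least 1 setting. Cd3e in iR2 against Wnt1, a called lymphocyte gene, turned sign with the title number (0.085, adjusted p = 0.943). No paired analysis was possible because the labels give the arrays no shared replicate numbers.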
